A study of Mus musculus with 7 samples.

Results

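The Serpina genes of mouse chromosome 12 encode plasma proteins of the serpin clade A, most of them made and secreted by hepatocytes. The genes described here were 10 rows of the read-count table picked by symbol, *Serpina1a*, *Serpina1b*, *Serpina1c*, *Serpina1d*, *Serpina1e*, *Serpina3k*, *Serpina3m*, *Serpina3n*, *Serpina6* and *Serpina10*, out of 14819 genes in the table. All 10 were present and all passed the filter on low counts. The libraries were made from untreated primary hepatocytes of male mice, isolated by collagenase perfusion and kept overnight in William's E medium with fetal bovine serum. There were 4 libraries from wild-type mice (WT) and 3 from mice with *Wdr6* deleted in the whole body by CRISPR–Cas9 (WDR6-WKO), a deletion that all cells of the animal carried. The age of the mice is not given in the labels, and neither is whether each library came from a separate animal, so p-values measure the spread between these libraries. WDR6-WKO library 3 stood apart: its chi-square per gene was 14.3 and 15.9 against the other WDR6-WKO libraries, and 3.80 to 8.22 between all other libraries of a genotype, so the main results are also given without it.

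A serpin inhibitor presents an exposed reactive centre loop as bait to a protease. The protease cuts the loop after the residue called P1, and the inhibitor then changes shape and traps the enzyme. Alpha-1-antitrypsin, which humans make from a single gene and the mouse from the *Serpina1* paralogs, protects the lung from neutrophil elastase. The *Serpina3* genes are the mouse relatives of human antichymotrypsin, *Serpina6* encodes corticosteroid-binding globulin, which carries glucocorticoids and inhibits no protease, and *Serpina10* encodes the protein Z-dependent protease inhibitor of coagulation factors Xa and XIa.

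The question was which of these genes differed between WDR6-WKO and WT hepatocytes, and what could be said of paralogs whose transcripts are nearly the same. Of the 10 genes, *Serpina1d* was higher in WDR6-WKO, *Serpina3m* and *Serpina10* were lower, and 7 did not pass an adjusted p of 0.05 in edgeR's quasi-likelihood test. Over all 14779 genes tested, 12.8% passed, 6.65% as higher and 6.18% as lower. *Serpina10* was the most reduced of the 3, to 0.712 of its WT level. Neither the 5 *Serpina1* paralogs as a sum nor the 3 *Serpina3* paralogs as a sum passed the test, and together the 10 genes held 0.310% ± 0.0197 (SD, n = 4) of counted reads in WT and 0.310% ± 0.00262 (SD, n = 3) in WDR6-WKO.

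The reactive centre loops are shown here because the loop sets which protease a serpin can trap. Each line gives 69 coding bases of exon 5, 5′ to 3′ on the coding strand, from the GENCODE annotation of GRCm38, starting at the conserved hinge of glycine, threonine, glutamate and alanine codons. The capitals mark the P1 codon, found as the codon 12 after that of the hinge glutamate.
Serpina1a, chr12:103853762-103853830, minus strand: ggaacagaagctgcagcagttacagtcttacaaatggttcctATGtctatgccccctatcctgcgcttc
Serpina1b, chr12:103728329-103728397, minus strand: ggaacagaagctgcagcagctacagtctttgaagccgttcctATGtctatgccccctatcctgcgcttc
Serpina1c, chr12:103895099-103895167, minus strand: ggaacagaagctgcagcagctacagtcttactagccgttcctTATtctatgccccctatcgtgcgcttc
Serpina1d, chr12:103763767-103763835, minus strand: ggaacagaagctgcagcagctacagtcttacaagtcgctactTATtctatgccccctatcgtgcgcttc
Serpina1e, chr12:103947105-103947173, minus strand: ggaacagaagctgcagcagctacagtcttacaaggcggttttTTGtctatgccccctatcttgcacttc
Serpina3k, chr12:104345269-104345337, plus strand: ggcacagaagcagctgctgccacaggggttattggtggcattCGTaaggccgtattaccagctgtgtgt
Serpina3m, chr12:104393769-104393837, plus strand: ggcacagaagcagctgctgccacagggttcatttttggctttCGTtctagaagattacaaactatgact
Serpina3n, chr12:104413448-104413516, plus strand: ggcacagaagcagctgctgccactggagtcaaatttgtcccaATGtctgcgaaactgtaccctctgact
Serpina10, chr12:103616924-103616992, minus strand: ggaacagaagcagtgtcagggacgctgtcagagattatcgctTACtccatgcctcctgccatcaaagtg

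The P1 codon read methionine in *Serpina1a*, *Serpina1b* and *Serpina3n*, tyrosine in *Serpina1c*, *Serpina1d* and *Serpina10*, leucine in *Serpina1e* and arginine in *Serpina3k* and *Serpina3m*. *Serpina6* lacked the hinge motif and is not shown. Within the 69 bases, *Serpina1c* and *Serpina1d* differed at 4 positions, and the other pairs of *Serpina1* paralogs at 6 to 10.

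The *Serpina1* paralogs were nearly the same gene outside the loop. Their coding sequences were 96.3% to 98.5% identical, with *Serpina1a* and *Serpina1c* the closest pair. Of the 50-base stretches of a transcript, those also found in transcripts of other genes made up 80.9% for *Serpina1a*, 79.3% for *Serpina1c*, 50.9% for *Serpina1d*, 47.1% for *Serpina1b* and 37.9% for *Serpina1e*. The shared part was smaller in the *Serpina3* genes, from 6.90% for *Serpina3n* to 19.1% for *Serpina3m*, and it was 1.48% for *Serpina10* and 0 for *Serpina6*. How reads that fit several paralogs were assigned is not given in the sources used here, so the division of reads among the *Serpina1* paralogs, and between *Serpina3k* and *Serpina3m*, is uncertain.

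Measured per kilobase of transcript, the order of the WT levels was *Serpina1b*, *Serpina3k*, *Serpina1e*, *Serpina3n*, *Serpina1a*, *Serpina1d*, *Serpina1c*, *Serpina3m*, *Serpina10* and *Serpina6*. The mean ran from 531 CPM per kilobase (CPM per kb, where CPM is the TMM-scaled read count relative to library size) for *Serpina1b* over 431 for *Serpina3k* and 373 for *Serpina1e* to 6.33 for *Serpina10* and 0.287 for *Serpina6*. In WT, the only neighbours in this order whose libraries overlapped were *Serpina3k* and *Serpina1e*. In WDR6-WKO the order was the same, and the only overlapping neighbours were *Serpina1a* at 127 ± 8.56 and *Serpina1d* at 122 ± 7.58 CPM per kb (SD, n = 3). In WT those were apart, at 141 ± 5.54 and 103 ± 1.92 CPM per kb (SD, n = 4). Dividing by the full transcript length takes no account of shared stretches, so the order among the *Serpina1* paralogs is uncertain too.

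**Figure D1:**
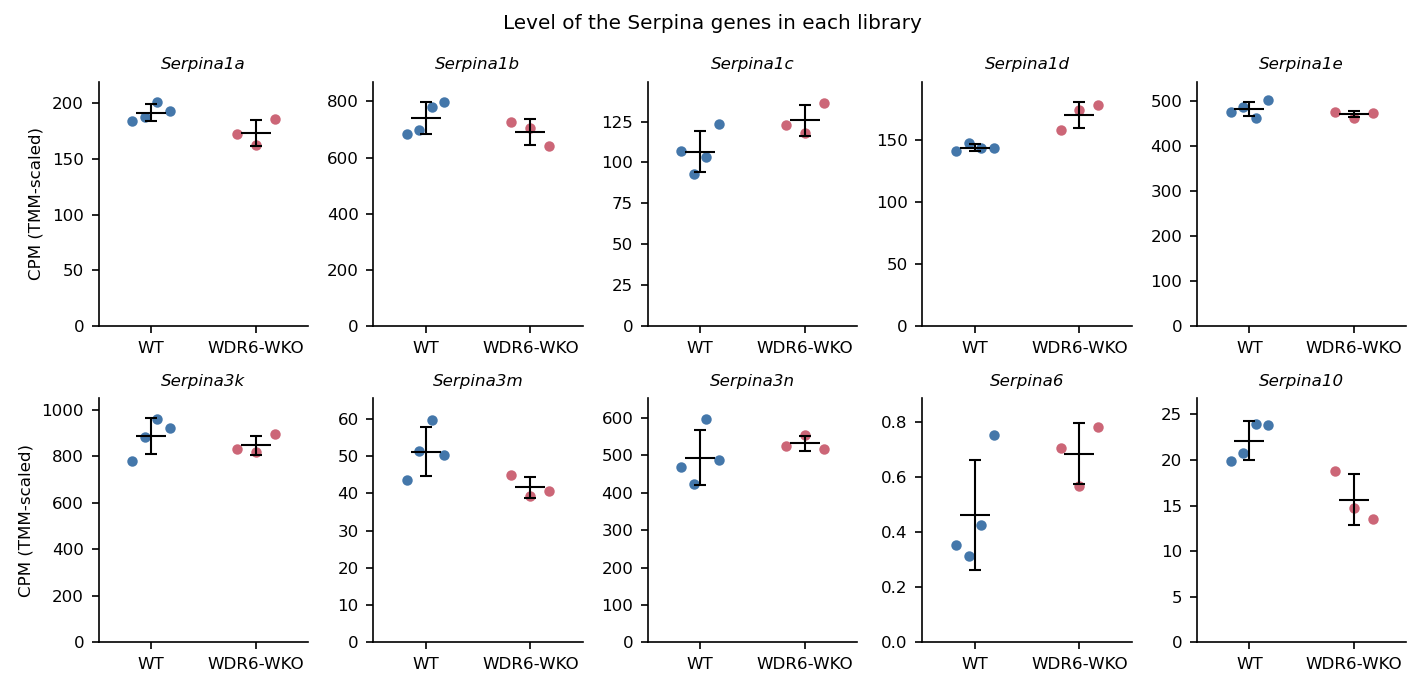
Level of each of the 10 genes in each library, in TMM-scaled CPM (y axes starting at 0), for WT (blue, n = 4) and WDR6-WKO (red, n = 3). Points are libraries and black marks the mean ± SD, and the genotypes do not overlap for *Serpina1d* and *Serpina10*.

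*Serpina1d* was the only antitrypsin paralog that passed as higher. The estimate for *Serpina1c*, described below, was of the same size with a larger standard error. The level of *Serpina1d* was 141, 148, 144 and 144 CPM in WT libraries 1 to 4. It was 158, 174 and 178 CPM in WDR6-WKO libraries 1 to 3. Every WDR6-WKO library was above every WT library. The fold was 1.18, a log2 fold change of 0.24 (SE 0.05, edgeR adjusted p = 0.00596), from 2709 to 3812 reads per library. Without WDR6-WKO replicate 3 the log2 fold change was 0.20 (edgeR adjusted p = 0.000894). Libraries of the genotypes did not overlap in 2 of the 10 genes, and in 23.5% of all genes tested.

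*Serpina1c*, the other paralog with a tyrosine P1 codon, had 107, 92.7, 103 and 123 CPM in WT and 123, 118 and 136 CPM in WDR6-WKO. WT library 4 lay within the WDR6-WKO range. The log2 fold change was 0.24 (SE 0.08) and did not pass (edgeR adjusted p = 0.0740). It passed under 3 of 15 alternatives: without WT replicate 4 (edgeR adjusted p = 0.0155), with library totals alone (0.0486) and with a replicate block (0.0018). The block in effect also leaves out WT replicate 4, which has no same-numbered WDR6-WKO library. Without WDR6-WKO replicate 3 the log2 fold change of *Serpina1c* was 0.18 (0.261).

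*Serpina1a* and *Serpina1b*, with the methionine P1 codon of human antitrypsin, had estimates below zero. *Serpina1a* was at 184, 187, 201 and 193 CPM in WT and 172, 162 and 186 CPM in WDR6-WKO, overlapping through WDR6-WKO library 3. Its log2 fold change was -0.14 (SE 0.05, edgeR adjusted p = 0.0994), and without WDR6-WKO replicate 3 it passed as lower (edgeR adjusted p = 0.00134). *Serpina1b*, the most abundant of the 5, was at 741 ± 56.7 CPM in WT and 691 ± 45.9 CPM in WDR6-WKO, a log2 fold change of -0.10 (SE 0.06, edgeR adjusted p = 0.315) that was -0.05 without WDR6-WKO replicate 3.

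*Serpina1e*, with a leucine P1 codon, was at 483 ± 16.1 CPM in WT (SD, n = 4) and 472 ± 6.85 CPM in WDR6-WKO (SD, n = 3). The log2 fold change was -0.03 (edgeR adjusted p = 0.673), with 2 standard errors on either side reaching from -0.12 to 0.05.

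The 5 *Serpina1* rows were also added up. A sum does not depend on how shared reads were divided among the paralogs if each was counted once within these rows. Whether that was so is not known. Each paralog also shared 50-base stretches with 6 other genes, some of them outside the sum. The sum was 1595, 1614, 1692 and 1761 CPM in WT and 1658, 1624 and 1614 CPM in WDR6-WKO. The WDR6-WKO libraries lay inside the WT range. The log2 fold change of the sum was -0.03 (SE 0.05, edgeR adjusted p = 0.742), and 2 standard errors reached from -0.12 to 0.06. It was -0.02 without WDR6-WKO replicate 3.

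**Figure D2:**
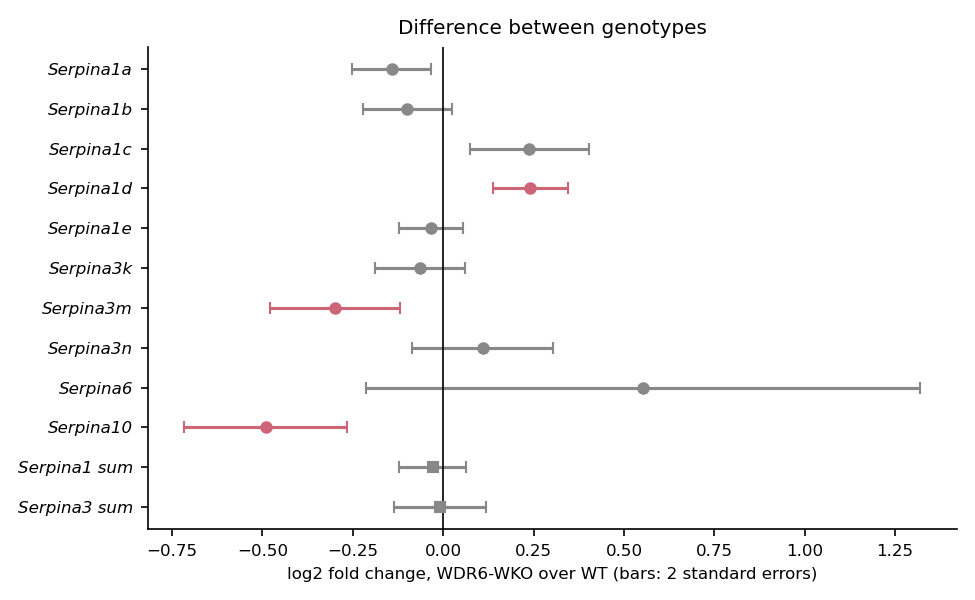
Log2 fold change of WDR6-WKO over WT for the 10 genes (circles) and for the sums of the *Serpina1* and *Serpina3* paralogs (squares), with bars of 2 standard errors. Red marks genes that passed the edgeR test after adjustment: *Serpina1d* at 0.24, *Serpina3m* at -0.30 and *Serpina10* at -0.49.

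Within the *Serpina1* sum, the share of *Serpina1d* reads was 8.67% ± 0.424 in WT and 10.4% ± 0.790 in WDR6-WKO, and that of *Serpina1c* was 6.39% ± 0.567 and 7.71% ± 0.637 (SD, n = 4 and n = 3). For both, every WDR6-WKO library was above every WT library. The difference was 1.78 percentage points for *Serpina1d* (exact permutation p = 0.0286, adjusted 0.114) and 1.32 points for *Serpina1c* (exact permutation p = 0.0571, adjusted 0.152). The test was two-sided over the 35 ways of dividing the libraries, so 0.0286 is the smallest p it can give. Adjusted over the 8 paralogs tested, no share passed. Without WDR6-WKO replicate 3 the differences were 1.47 points for *Serpina1d* and 0.955 points for *Serpina1c*.

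The shares of *Serpina1b*, at 44.4% in WT and 42.3% in WDR6-WKO, *Serpina1e*, at 29.0% and 28.9%, and *Serpina1a*, at 11.5% and 10.6%, overlapped between genotypes. Grouped by P1 codon, a grouping made after the values were seen and therefore given without a test, the tyrosine pair *Serpina1c* and *Serpina1d* summed to 251 ± 11.4 CPM in WT and 296 ± 17.0 CPM in WDR6-WKO. The methionine pair *Serpina1a* and *Serpina1b* summed to 932 ± 63.0 and 865 ± 37.6 CPM. The ratio of the tyrosine to the methionine pair was 0.285, 0.271, 0.252 and 0.269 in WT and 0.313, 0.337 and 0.381 in WDR6-WKO. The ratio was thus higher in each WDR6-WKO library than in each WT library, and highest in WDR6-WKO library 3. The grouping separates *Serpina1a* from *Serpina1c*, the closest pair in coding sequence. Like the shares, the ratio therefore depends on how shared reads were assigned, which is not known.

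**Figure D3:**
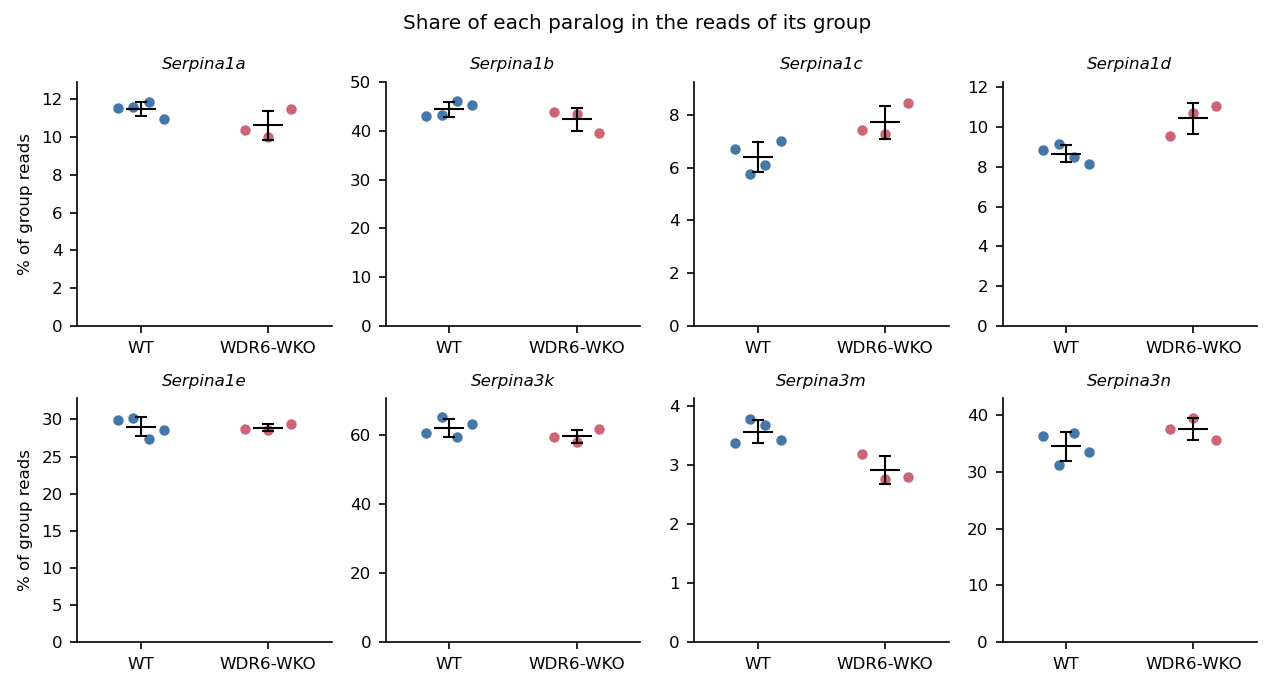
Share of each paralog in the reads of its group, in percent of the *Serpina1* sum or of the *Serpina3* sum (y axes starting at 0), for WT (blue, n = 4) and WDR6-WKO (red, n = 3), with the mean ± SD in black. The genotypes do not overlap for *Serpina1c*, *Serpina1d* and *Serpina3m*, and no share passed the exact test after adjustment.

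Of the *Serpina3* genes, 1 passed and 2 did not. *Serpina3m* was at 43.6, 51.3, 59.6 and 50.1 CPM in WT and at 44.8, 39.1 and 40.7 CPM in WDR6-WKO. The genotypes overlapped, since WT library 1 was below WDR6-WKO library 1. *Serpina3m* fell by 0.30 on the log2 scale (SE 0.09, edgeR adjusted p = 0.0410). The call was lost under 8 of 15 alternatives, among them without WT replicate 2, 3 or 4 and without WDR6-WKO replicate 2 or 3 (edgeR adjusted p = 0.160 without WDR6-WKO replicate 2 and 0.128 without WDR6-WKO replicate 3).

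*Serpina3k*, which encodes a kallikrein-binding protein and was the most abundant of the 3, was at 887 ± 77.1 CPM in WT and 848 ± 41.1 CPM in WDR6-WKO, a log2 fold change of -0.06 (SE 0.06, edgeR adjusted p = 0.553). *Serpina3n*, an acute-phase inhibitor of granzyme B and other proteases, was at 494 ± 73.3 CPM in WT, where libraries ran from 423 to 596, and at 533 ± 20.3 CPM in WDR6-WKO. Its log2 fold change was 0.11 (SE 0.10, edgeR adjusted p = 0.519), and it passed as higher only without WT replicate 3 (edgeR adjusted p = 0.0459).

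The sum of the 3 *Serpina3* genes was 1432 ± 141 CPM in WT and 1423 ± 26.2 CPM in WDR6-WKO, a log2 fold change of -0.01 (SE 0.06, edgeR adjusted p = 0.947) with 2 standard errors from -0.14 to 0.12. Within it, the share of *Serpina3m* was 3.57% ± 0.195 in WT and 2.92% ± 0.235 in WDR6-WKO, without overlap (exact permutation p = 0.0286, adjusted 0.114). The share of *Serpina3n* was 34.4% and 37.5% and that of *Serpina3k* 62.0% and 59.6%, both overlapping.

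*Serpina10* fell in WDR6-WKO hepatocytes. Its level was 19.9, 20.8, 24.0 and 23.9 CPM in WT and 18.8, 14.7 and 13.5 CPM in WDR6-WKO. All WDR6-WKO libraries were below all WT libraries, with WDR6-WKO library 1 the nearest and library 3 the lowest. The log2 fold change was -0.49 (SE 0.11, edgeR adjusted p = 0.00956), from 242 to 476 reads per library, and the call held under all 15 alternatives tried, with a log2 fold change of -0.40 without WDR6-WKO replicate 3 (edgeR adjusted p = 0.00397). By the thresholds of the study's own analysis, a log2 change of 0.35 or more in either direction with an unadjusted p under 0.05, *Serpina10* was the only one of the 10 genes to pass, against 10.4% of all genes.

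The partners of the SERPINA10 protein were read from the same libraries. Protein Z, encoded by *Proz*, is the cofactor that speeds the inhibition of factor Xa. *Proz* was at 7.61, 6.86, 10.8 and 9.49 CPM in WT and 5.36, 4.87 and 6.42 CPM in WDR6-WKO, without overlap, and fell by 0.65 on the log2 scale (SE 0.16, edgeR adjusted p = 0.0156). *F10*, the gene of the target factor X, was at 11.2, 14.5, 16.6 and 14.7 CPM in WT and 10.9, 10.8 and 8.27 CPM in WDR6-WKO and fell by 0.50 (SE 0.13, edgeR adjusted p = 0.0219).

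*F11*, the gene of the second target, factor XI, was at 39.9, 43.6, 42.6 and 42.3 CPM in WT and 32.5, 29.0 and 33.7 CPM in WDR6-WKO. It fell by 0.41 on the log2 scale (SE 0.07, edgeR adjusted p = 0.00107). Inhibitor, cofactor and both targets were therefore lower in every WDR6-WKO library than in every WT library. Libraries of the genotypes did not overlap in 23.5% of all genes tested. The margin was small for *F10*, with 11.2 CPM in WT library 1 and 10.9 CPM in WDR6-WKO library 1. It was also small for *Proz*, with 6.86 CPM in WT library 2 and 6.42 CPM in WDR6-WKO library 3. The calls of *Proz* and *F10* were each lost under 4 of 15 alternatives. For *Proz* these were without WT replicate 3 or 4 or WDR6-WKO replicate 1 or 2 (edgeR adjusted p up to 0.0801), and for *F10* they included leaving out WT replicate 2, 3 or 4 (up to 0.0779).

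**Figure D4:**
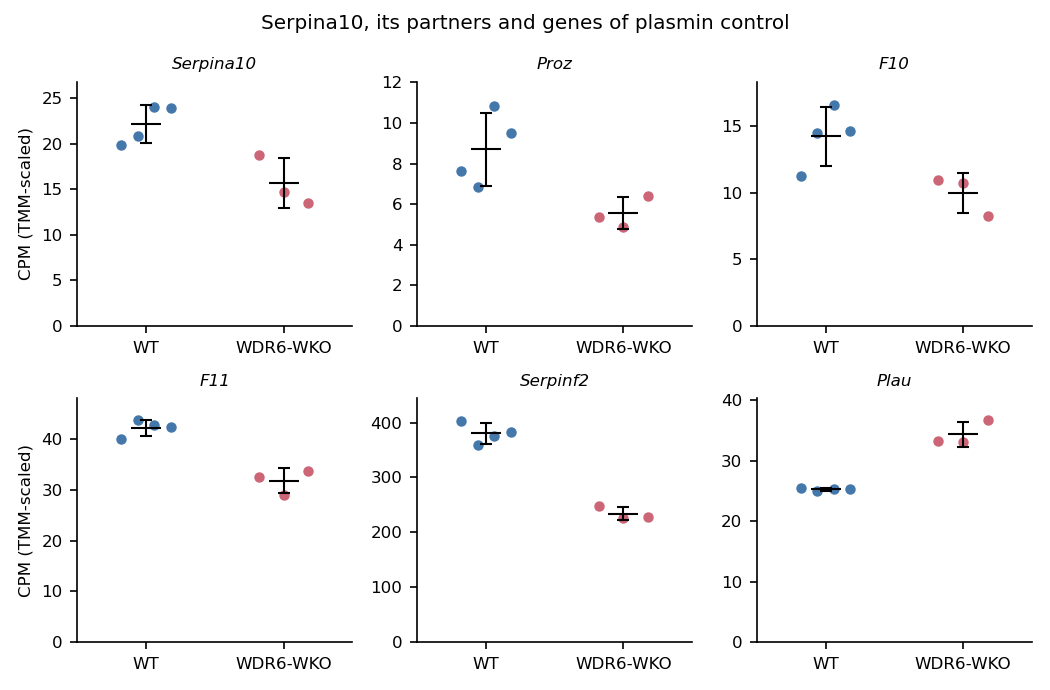
CPM in each library of *Serpina10*, its cofactor gene *Proz*, its target genes *F10* and *F11*, and the plasmin regulators *Serpinf2* and *Plau* (y axes starting at 0), for WT (blue, n = 4) and WDR6-WKO (red, n = 3), with the mean ± SD in black. The first 5 genes are lower in every WDR6-WKO library and *Plau* is higher. The genotypes do not overlap in 23.5% of all genes tested.

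*Serpina6* had the lowest level of the 10 genes in these cultures. Between 6 and 17 reads per library were counted, which gave 0.353, 0.314, 0.425 and 0.753 CPM in WT and 0.706, 0.567 and 0.782 CPM in WDR6-WKO. WT library 4 lay within the WDR6-WKO range. The log2 fold change of 0.55 (SE 0.38, edgeR adjusted p = 0.374) had 2 standard errors from -0.21 to 1.32, so a difference was not detectable at this depth. Without WT replicate 4 it was 0.90 (edgeR adjusted p = 0.187). Of 14 genes of glucocorticoid action, the hormone system that corticosteroid-binding globulin serves, 2 were higher and 1 was lower, with a median log2 fold change of 0.00. Over all genes tested, 6.65% were higher and 6.18% lower. *Tsc22d3*, a glucocorticoid-induced leucine zipper, rose by 0.35 (edgeR adjusted p = 0.00741) and *Hsd11b1*, which regenerates active glucocorticoid, by 0.26 (0.0138). *Pck1*, the gluconeogenic enzyme gene, fell by 1.73 from 1.47 ± 0.586 CPM to 0.427 ± 0.177 CPM (edgeR adjusted p = 0.00925). The number of these 14 genes called higher was 1 without WDR6-WKO replicate 1 or 2. It was 4 without WDR6-WKO replicate 3, where 2150 of all 14796 genes were higher.

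Other genes of protease control were taken as lists, chosen with earlier results of these data known. They are described by counts beside the all-gene median log2 fold change of 0.01 and the all-gene shares of 6.65% higher and 6.18% lower. Of 18 further clade A genes, 10 were tested, and 0 were higher and 0 lower by the edgeR test. The nearest was *Serpina7*, the gene of thyroxine-binding globulin, at 53.2 ± 7.14 CPM in WT and 39.5 ± 7.73 CPM in WDR6-WKO (edgeR adjusted p = 0.0952). *Agt*, the angiotensinogen gene, was at 88.0 ± 5.16 and 93.6 ± 7.22 CPM (edgeR adjusted p = 0.385). At an unadjusted p under 0.05 there was 1 higher, *Serpina5*, and 1 lower, *Serpina7*. The share of all genes at that unadjusted threshold was not counted. By adjusted p, 1 of the list was called lower by DESeq2, by limma-voom, without WT replicate 1 and without WDR6-WKO replicate 1.

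Of 14 serpins of other clades, 3 were higher and 2 lower, with a median log2 fold change of -0.00. *Serpinf2*, which encodes the plasmin inhibitor alpha-2-antiplasmin, fell by 0.70 from 380 ± 18.2 to 234 ± 12.1 CPM (edgeR adjusted p = 5.31e-07). *Serpine2*, the gene of protease nexin 1, fell by 0.55 (edgeR adjusted p = 3.26e-05). *Serpinb8* rose by 0.57 (edgeR adjusted p = 0.000497), *Serpinb9*, a granzyme B inhibitor gene, by 0.24 (0.0228) and *Serpinh1*, a collagen chaperone gene, by 0.38 (0.0238). The genotypes overlapped for *Serpinh1*, with WT library 4 at 94.5 CPM and WDR6-WKO library 3 at 94.2 CPM. The call of *Serpinh1* was lost under 5 of 15 alternatives and that of *Serpinb9* under 3. Without WT replicate 1 or 2, 1 gene of the list was higher. Without WDR6-WKO replicate 3 there were 5 lower, in a fit where 2083 of all 14796 genes were lower.

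Of 21 other secreted protease inhibitors tested, 5 were higher and 5 lower, with a median of -0.05. *Ahsg*, the fetuin-A gene, fell by 0.97 (edgeR adjusted p = 3.43e-07) and *Kng1*, the kininogen gene, by 0.45 (3.77e-05), followed by *Itih2*, an inter-alpha-inhibitor heavy chain, by 0.39 (0.000126) and *Kng2* by 0.30 (0.00053). *Mug2*, a murinoglobulin of the alpha-2-macroglobulin family, rose by 0.89 from 22.3 ± 0.830 to 41.5 ± 6.22 CPM (edgeR adjusted p = 7.51e-06). *Timp1*, the metalloproteinase inhibitor, rose by 0.39 (edgeR adjusted p = 0.00576). Without WT replicate 4 or WDR6-WKO replicate 1 or 2 there were 3 higher.

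Of 15 target proteases and cofactors tested, 3 were higher and 5 lower, with a median of -0.11. Besides *Proz*, *F10* and *F11*, *Plau*, the urokinase gene, rose by 0.44 from 25.2 ± 0.185 to 34.3 ± 2.10 CPM (edgeR adjusted p = 0.000514). The lysosomal cathepsin genes *Ctsl* and *Ctsb* rose by 0.27 (edgeR adjusted p = 0.00107) and 0.22 (0.00314). The number lower dropped to 1 without WT replicate 3, to 2 without WT replicate 4 or WDR6-WKO replicate 2, and to 3 without WT replicate 1 or 2 or with library totals alone. *Elane*, the gene of neutrophil elastase, had no row in the read-count table and could not be tested.

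**Figure D5:**
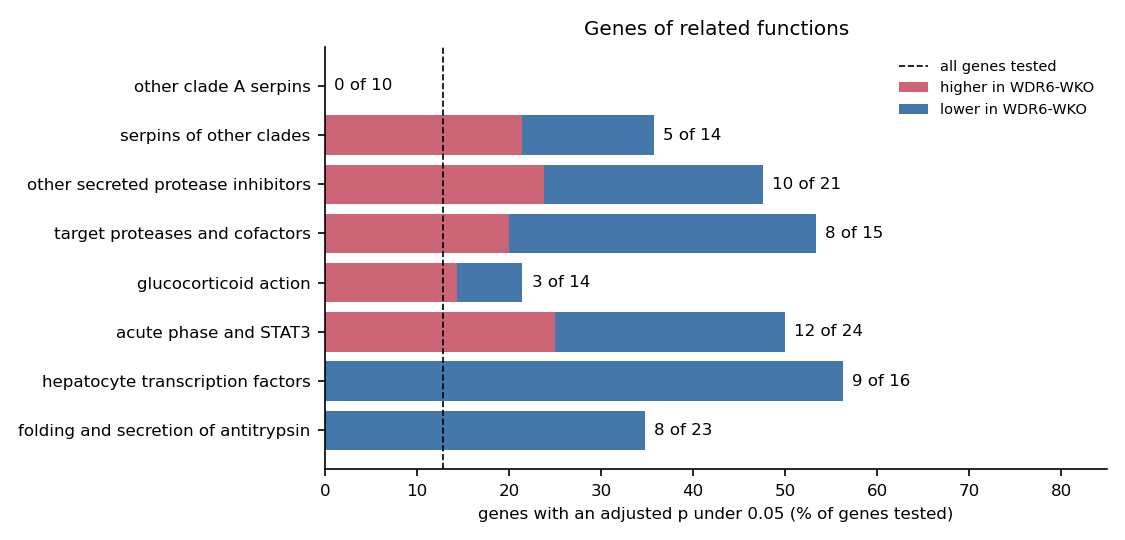
Percent of tested genes that passed the edgeR test after adjustment, for 8 gene lists, split into higher (red) and lower (blue) in WDR6-WKO, with the count beside each bar and the share over all genes, 12.8%, as a dashed line. The 16 hepatocyte transcription factors had 9 lower and 0 higher, and the 10 clade A serpins had 0 of either.

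Genes for the folding, export and degradation of antitrypsin in the endoplasmic reticulum were counted next, as 1 list. Its counts therefore do not describe folding and export alone. Of 23 tested, 0 were higher and 8 lower, with a median log2 fold change of -0.13. *Hsp90b1*, the chaperone GRP94, fell by 0.25 (edgeR adjusted p = 0.00332), *Edem1*, which directs misfolded glycoproteins to degradation, by 0.18 (0.0179), and *Lman1*, the cargo receptor for antitrypsin, by 0.17 (0.0235). *Syvn1*, the ubiquitin ligase of this degradation route, fell by 0.22 (0.0255), *Uggt1*, a folding sensor, by 0.18 (0.0285) and *Pdia4*, a disulphide isomerase, by 0.15 (0.0399). The number lower was not stable: it dropped to 1 to 4 without any one of the WT replicates or WDR6-WKO replicate 1 or 2. It came to 13 without WDR6-WKO replicate 3, where 3 were higher. In that fit 2083 of all 14796 genes were lower and 2150 higher. With library totals alone 3 of the list were lower and 1 higher. At an unadjusted p under 0.05 there were 2 higher and 14 lower. The share of all genes at that unadjusted threshold was not counted, so these numbers have no background beside them. DESeq2 and limma-voom each called 0 higher and 8 lower.

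Of 16 hepatocyte transcription factors, 0 were higher and 9 lower, with a median of -0.27. *Prox1* fell by 0.62 (edgeR adjusted p = 4.76e-05), *Xbp1*, a factor of secretory capacity, by 0.38 (5.02e-05), *Onecut1* by 1.18 (0.000438), *Onecut2* by 0.51 (0.00112), *Nr0b2* by 0.82 (0.00403) and *Hnf4a* by 0.27 (0.00502). At an unadjusted p under 0.05, and by DESeq2 or limma-voom, 0 were higher as well.

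Of 24 acute-phase and STAT3 genes, the class to which *Serpina3n* belongs, 6 were higher and 6 lower, with a median of -0.10. *Lcn2* rose by 0.45 (edgeR adjusted p = 1.95e-05), *Orm2*, an orosomucoid, by 0.64 (5.25e-05) and *Saa3*, a serum amyloid A, by 1.40 (0.00787). *Fgb*, a fibrinogen chain, fell by 0.45 (edgeR adjusted p = 0.000143), *Lbp*, the lipopolysaccharide-binding protein, by 0.40 (0.000225) and *Steap4* by 0.37 (0.00108). Acute-phase genes thus passed in both directions, and *Serpina3n* in neither. Without WT replicate 1, 2 or 4 or WDR6-WKO replicate 1, 3 were higher.

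The genes whose log2 CPM followed the *Serpina1* sum most closely over the 7 libraries were *4931406P16Rik* (Pearson r = 0.985), *Ccdc159* (0.979), *Prdm15* (0.977), *Stard9* (0.977) and *Tmppe* (0.964). These are the highest values among all genes outside the family, and are a description of these libraries.

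*Wdr6* itself was at 44.0 ± 4.03 CPM in WT and 2.38 ± 0.179 CPM in WDR6-WKO (log2 fold change -4.20, edgeR adjusted p = 3.44e-12). Libraries held 17816913 to 23668940 counted reads, and Spearman's rho between libraries of a genotype was 0.992 to 0.996. The hepatocyte gene *Alb* was at 7366 ± 730 CPM in WT and 6480 ± 363 CPM in WDR6-WKO (edgeR adjusted p = 0.101). Of 10 hepatocyte markers tested, 1 was higher and 4 lower, against 6.65% and 6.18% of all genes tested. Their summed levels were 7976 to 9551 CPM in WT and 7504 to 7989 CPM in WDR6-WKO. The marker called higher, *Apoa2*, was not called without WT replicate 1, 3 or 4 or WDR6-WKO replicate 1 or 2.

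Markers of other liver cells were present. The counts below stand beside 6.65% higher and 6.18% lower over all genes tested. Of 13 Kupffer cell markers, 4 were higher and 0 lower, and their sum was 864 to 944 CPM in WT and 999.7 to 1199 CPM in WDR6-WKO. Of 5 cholangiocyte markers, 2 were higher and 0 lower, with a sum of 3068 to 3360 CPM in WT and 3713 to 4306 CPM in WDR6-WKO, most of it *Spp1*. Without WDR6-WKO replicate 3, 8 Kupffer cell markers and 4 stellate cell markers were higher. In that fit 2150 of all 14796 genes tested were higher, so calls rose over the whole table. Without WT replicate 1 or 2 or WDR6-WKO replicate 1 or 2, 1 cholangiocyte and 1 stellate cell marker were higher, and without WT replicate 3, 1 cholangiocyte marker. Of 11 stellate cell markers, 2 were higher and 2 lower (931 to 965 and 920 to 999 CPM), and of 10 sinusoidal endothelial markers 0 passed by edgeR, DESeq2 or limma-voom and 0 had an unadjusted p under 0.05 (331 to 376 and 315 to 371 CPM). Of 8 lymphocyte markers 1 was tested (12.9 to 16.0 CPM in WT and 14.2 to 15.2 CPM in WDR6-WKO), as was 1 of 8 neutrophil markers (1.20 to 2.12 and 1.40 to 1.98 CPM), and neither passed. Fewer cells of a type and less RNA per cell cannot be told apart in such libraries, and the part of these markers in the *Serpina* differences was not tested.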

How the data were processed

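RNA from primary hepatocytes (4 WT, 3 WDR6-WKO libraries) was sequenced on an Illumina HiSeq after NEBNext Ultra preparation, and reads were aligned to mm10 with Bowtie2 2.2.3 according to the submitters' processing notes. The authors deposited raw read counts per gene. The counting tool, annotation, strand setting and treatment of multiply aligned reads are not given in the sources used here. Bowtie2 itself does not split reads across introns, so reads over exon junctions may be missing.

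Counts were filtered with filterByExpr, scaled by TMM and tested with edgeR 4.0.16 (robust quasi-likelihood F test, genotype only, R 4.3.3), with Benjamini-Hochberg adjustment over 14779 genes. Paralog sums replaced their rows in the same fit. Shares were compared by exact two-sided permutation. limma 3.58.1 and DESeq2 1.42.0 were alternatives, with other scalings, filters, a replicate block, omission of each library and the study's thresholds. Scripts were tested on simulated data. Sequences came from GENCODE M21 (GRCm38), which may not be the annotation the authors counted on.

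Named genes were all members, up to 6 called genes per list by smallest p, the 5 genes most like the *Serpina1* sum, and *Wdr6*. *Serpina7*, *Serpina5* and *Agt* were added after their values were seen. Members and lists were chosen with earlier results of these data known. The biological coefficient of variation was 7.40%.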

Additional observations from a re-analysis of the deposited data

How the results depend on the processing

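Across the 10 genes and 15 alternatives, 135 of 148 fold changes kept their direction and their side of the threshold, 8 lost the call (all *Serpina3m*), 5 gained one and 0 reversed; *Serpina6* had no adjusted p under DESeq2 and was not tested with at least 10 counts in every library. *Serpina1d* kept an adjusted p of 0.000894 to 0.0290 and *Serpina10* of 0.00101 to 0.0487. By the adjusted p, 2 or 3 of the 10 genes were called without single libraries. By the study's thresholds 1 was called instead of 3, and 1 or 2 without single libraries. The number of genes called ran from 1032 (without WDR6-WKO replicate 2) to 4233 (without WDR6-WKO replicate 3), against 1897, and the cause was not tested. Scaling by library totals alone called 1212 genes higher and 696 lower, against 983 and 914 with TMM, and 2 of the 10 genes higher and 1 lower. The *Serpina3* sum, near zero, turned to 0.017 with library totals alone and to 0.0062 with the replicate block, and ran from -0.055 to 0.054 without single libraries. The share of *Serpina1e* ran from -0.654 to 0.272 points without single libraries. Replicate numbers did not pair the libraries: deviations of the same-numbered libraries correlated at 0.0689, 0.0311 and 0.0566. With the replicate block 1762 genes and 3 of the 10 were called, with *Serpina1c* gained (adjusted p = 0.0018) and *Serpina3m* lost (0.0751). The log2 fold change of *Serpina6* was 0.90 (0.207). WT replicate 4 has no same-numbered WDR6-WKO library, so the block in effect leaves it out of the genotype difference. Its estimates were close to those without WT replicate 4, at 0.32 in both for *Serpina1c*. The counts of the gene lists were recomputed under each alternative, a step chosen after seeing the data. With the *Serpina6* counts, only large differences would be detectable.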
